A study of Rattus norvegicus with 12 samples.

Results

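The regions described here were 175 long stretches of densely placed probes on the autosomes of the rat (genome build rn4), read in kidneys of the SHRSP rat, the stroke-prone form of the spontaneously hypertensive rat, a strain bred for high blood pressure and stroke. They were chosen by position alone. The probes of each chromosome were put in order of their start, a gap of more than 1000 bp between the starts of neighbouring probes began a new region, and a region was kept if it spanned more than 5000 bp from its first probe start to its last probe end. This kept 175 of 15504 autosomal regions (16174 regions on all chromosomes) and 20405 of 164271 autosomal probes, or 12.4%. No methylation value entered the choice. The shortest regions kept spanned 5039 and 5152 bp, and the longest left out spanned 4999 and 4903 bp.

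Kidney DNA of male offspring aged 6 weeks was compared between 4 groups of 3 arrays, each named by the mother's diet and then the offspring's own diet after weaning. In the mCN-CN group both the dam and the offspring received a 20% casein diet. The dams of the other 3 groups received a 9% casein diet during pregnancy, and their offspring then received 20% casein (mLP-CN), 9% casein (mLP-LP) or 40% casein (mLP-HP). All animals were thus of a hypertensive strain, without a normotensive group among the arrays. The labels do not tie arrays to animals or litters, so p-values measure the spread between arrays, which may be partly technical. Each array was hybridised with DNA precipitated by an antibody to 5-methylcytosine (dye Cy5) and with input DNA (dye Cy3), and the level of a probe was log2(Cy5/Cy3), centred on each array. A value above 0 means more precipitated DNA relative to input than at the median probe and is not a percentage of methylated cytosines.

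DNA methylation in mammals falls mostly on cytosines followed by guanine (CpG sites). Most of the genome is methylated at these sites, while CpG-rich promoters and active regulatory elements are commonly kept free of it and form valleys in a methylated surrounding. In methylated DNA immunoprecipitation the recovered amount depends on the methylation and also on how many CpG sites a fragment holds, so a low level can mean unmethylated DNA or DNA with few CpG sites.

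Tiles of neighbouring promoters that run into each other would give such long stretches, but much of the layout went against that description. The other autosomal regions had a median span of 1662 bp and a median of 10 probes, whereas the long regions had a median span of 18034 bp (range 5039 to 99717 bp) and a median of 88 probes (range 19 to 538). Of the 175 long regions, 139 lay within 5000 bp of another region. When regions up to 5000 bp apart were joined, a distance chosen after the layout was seen, the long regions fell into 96 blocks with a median span of 49952 bp. Of these blocks, 41 spanned 49000 to 51000 bp and 5 spanned 99000 to 110000 bp. These 46 blocks held 82 of the 175 long regions, and over all blocks the span ran from 5242 to 102024 bp. Chromosome 1 held 28 long regions and chromosome 10 held 21, while chromosomes 12, 16 and 20 held none. On chromosome 13, 25.9% of all probes lay in long regions. Probe starts lay a median of 163 bp apart in long regions and 162 bp apart in the others, so the sampling density was alike. The scanner files give positions on rn4 without probe sequences or gene assignments, and no annotation of that build was used here, so the regions are named by position only.

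**Figure D1:**
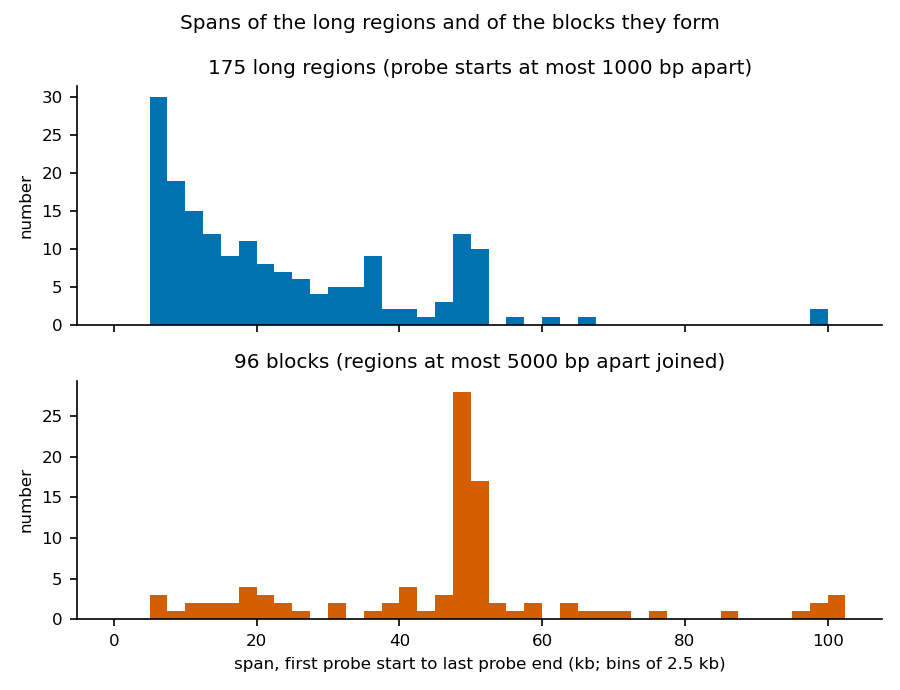
Spans of the 175 long regions (upper plot) and of the 96 blocks formed by joining regions up to 5000 bp apart (lower plot), as counts in bins of 2.5 kb. The blocks pile up at about 50 kb, with a smaller group near 100 kb.

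Some arrays resembled arrays of another group more than those of their own, which bears on each comparison below. The 12 arrays were read in 5 scans. All mCN-CN and mLP-CN arrays were read on 1 day. All mLP-HP arrays and replicate 10 of mLP-LP were read on another day, and replicates 11 and 12 of mLP-LP on a further day. The median, over the 175 regions, of the correlation between 2 arrays' probe levels along a region was 0.91 to 0.97 for the 6 pairs of the same group and scan. It was 0.80 to 0.95 for the 6 pairs of the same group on different scans, and 0.84 to 0.97 for the 5 pairs of different groups on the same scan. Replicate 10 of mLP-LP, read together with replicates 8 and 9 of mLP-HP, correlated with them at 0.967 and 0.962. With replicate 7 of mLP-HP, read on another scan of the same day, it correlated at 0.939. It correlated with replicates 11 and 12 of its own group, read on another day, at only 0.798 and 0.825. In 2979 of the 3979 windows of 1000 bp in the long regions (74.9%) it lay nearer to the mLP-HP mean than to the mean of the other mLP-LP arrays. A shared scan or day and an exchange of samples cannot be told apart for this array. Replicates 11 and 12 of mLP-LP in turn correlated with replicates 1 and 2 of mCN-CN at 0.911 to 0.931. Replicate 3 of mCN-CN was read with all 3 mLP-CN arrays, carried 16509 spots flagged as outliers (170 and 173 on replicates 1 and 2), and lay nearer to the mLP-CN mean than to the mean of its own group's other arrays in 57.4% of the windows. The mLP-CN arrays were all read on 1 scan, and on another scan and day than every mLP-LP and mLP-HP array. In comparisons with those groups scan can enter the model only as a random block. Diet cannot be told apart there from scan within a scan, or from day. The median signal per array was 95 to 166 in Cy3 and 94 to 153 in Cy5.

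The long regions were less methylated by this measure than the other autosomal regions on every array. The median level of the long regions was -0.17, -0.18 and -0.075 on the mCN-CN arrays, -0.11, -0.14 and -0.11 on the mLP-CN arrays, -0.19, -0.13 and -0.15 on the mLP-LP arrays, and -0.14, -0.19 and -0.19 on the mLP-HP arrays. The other regions lay between -0.0025 and 0.053. The mean difference was -0.17 ± 0.041 (SD, n = 12 arrays), with an exact two-sided sign-flip permutation p = 0.000488, the smallest that 12 arrays allow. This p treats the arrays as independent, while region means correlated at 0.533 within scans. The mean difference was below 0 on all 5 scans, between -0.22 and -0.12. The gap went with probe length. Probes of 45 bases had a median level 0.12 lower in long regions than in other regions on average (lower on 12 of 12 arrays). Probes of 60 bases differed by 0.017 in the opposite direction (range 0 to 0.034). In long regions the medians were -0.016, -0.20 and -0.34 for probes of 46 to 50, 51 to 55 and 56 to 59 bases. They were slightly lower in the others, at -0.029, -0.23 and -0.37. The median probe was 49 bases long in long regions against 45 bases in the others. The input channel was above background for a similar share of probes: 3.89% of the long regions' probes and 3.94% of the others fell below it on all 12 arrays.

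**Figure D2:**
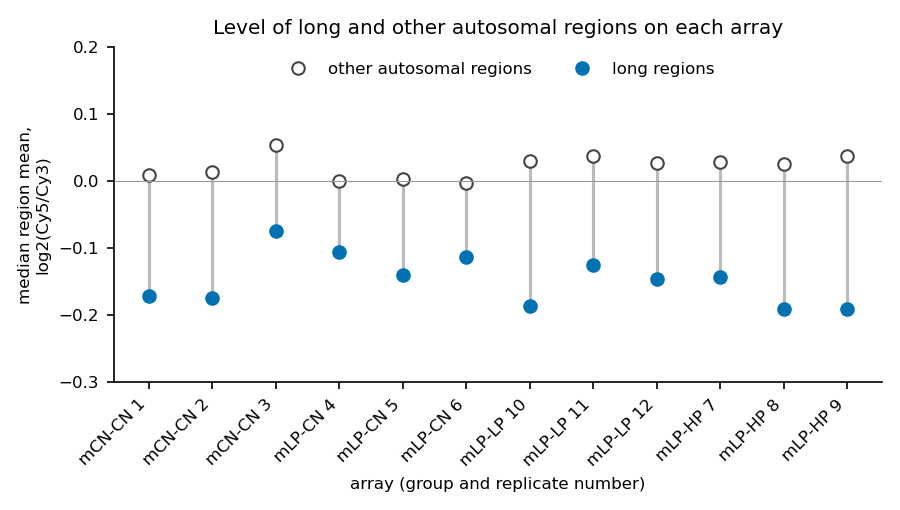
Median region mean, in log2(Cy5/Cy3), of the 175 long regions (filled points) and of the other autosomal regions (open points) on each of the 12 arrays. The long regions lie lower on all 12 arrays, and the gap is narrowest, at 0.11 to 0.14, on the 3 mLP-CN arrays and on replicate 3 of mCN-CN, which was read with them.

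The gap between long and other regions was -0.17 ± 0.033 (SD, n = 3) in mCN-CN, -0.12 ± 0.021 in mLP-CN, -0.18 ± 0.028 in mLP-LP and -0.21 ± 0.030 in mLP-HP. The mLP-CN arrays did not overlap with the mLP-LP or the mLP-HP arrays. The exact two-sided permutation p was 0.1 for each of these comparisons, the smallest that 3 against 3 arrays allow, so neither could reach the threshold.

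Along their length the long regions alternated between valleys and hills. A valley was at least 3 neighbouring probes in the lowest 25% of all smoothed autosomal levels (below -0.31), and a hill at least 3 in the highest 25% (above 0.31), where smoothing used the mean over 12 arrays and linear weights over 500 bp on each side. Valleys were seen in 155 regions, hills in 126, both in 108 and neither in 2. In all there were 913 valleys and 456 hills, or 2.22 valleys and 1.11 hills per 10000 bp. Of the probes in long regions 31.7% lay in the lowest 25% and 14.3% in the highest 25%, against 24.0% and 26.5% of the other probes. The range of the smoothed level within a region had a median of 1.92 and ran from 0.58 to 5.12. Neighbouring probes were only loosely alike: over pairs within long regions the correlation of levels was 0.242 up to 250 bp, 0.151 at 250 to 500 bp and 0.0883 at 20 to 50 kb, where the pairs share arrays and base composition. The levels followed probe length, which the array maker adjusts to base composition. Probes of 45 bases in long regions had a median level of 0.19 and those of 60 bases one of -0.39. The precipitated channel was well above background for 92.9% of readings in the highest class and for 48.9% in the lowest, while the input channel was so for 93.4% and 92.5%.

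The region with the lowest level was a whole block on chromosome 1, chr1:116165050-116215045, of 49996 bp and 243 probes. Its mean was -1.11, -1.15 and -1.09 on the mCN-CN arrays, -1.10, -1.14 and -1.18 on mLP-CN, -1.10, -1.14 and -1.26 on mLP-LP, and -1.08, -1.16 and -1.20 on mLP-HP. The groups overlapped fully, and 88.1% of its probes lay below 0. Input signal was not short there, with 95.1% of input readings above background, while 47.1% of precipitated readings were. The next lowest region, chr1:116081589-116096510 (mean -0.99 over 12 arrays), lay in the block before it on the chromosome, and the third was chr10:68605817-68613798 (-0.88). None of the 3 had a hill. At the other end, chr1:202912726-202917967 had a mean of 0.34, chr10:62464547-62480801 one of 0.31 and chr9:74258640-74264437 one of 0.25. In the chromosome 10 region 55.8% of the 86 probes were in the highest 25% and 5.81% in the lowest.

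The widest ranges came from short and deep valleys that all 12 arrays shared, and which are given as a description since their depth chose them. Probe counts and positions here cover only the deepest stretch around the lowest point, by a stricter limit than the valley rule above. In chr3:18601182-18649087 a valley of 9 probes at chr3:18622688-18624026 reached a smoothed level of -4.08, and the mean over its probes was between -3.04 and -2.75 on every array. The group means there were -2.90 ± 0.060 in mCN-CN, -2.82 ± 0.10 in mLP-CN, -2.93 ± 0.10 in mLP-LP and -2.96 ± 0.029 in mLP-HP (SD, n = 3). A valley of 7 probes at chr17:22158849-22160113, at the end of chr17:22138759-22160113, reached -3.47 and continued in the next region, chr17:22162014-22171823, with 4 probes that reached -3.06. The valley in chr18:16245634-16269562 (3 probes) reached -2.72. The wide range of chr1:64304744-64314619 came from a single probe, which is no valley by the rule above, and its precipitated signal was above background in 0% of readings, so that its depth is not resolved. Input signal at these 5 places was high, at a mean log2 Cy3 of 9.61 to 9.97, against region medians of 7.01 to 7.88. Mean log2 Cy5 in the chromosome 3 valley and in chr17:22162014-22171823 was 6.70 and 7.26, above region medians of 6.38 and 7.10. It was lower than the region median in chr17:22138759-22160113 (6.86 against 7.28), on chromosome 18 (6.46 against 7.76) and on chromosome 1 (6.25 against 6.51). A low ratio here thus need not mean little precipitated DNA.

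**Figure D3:**
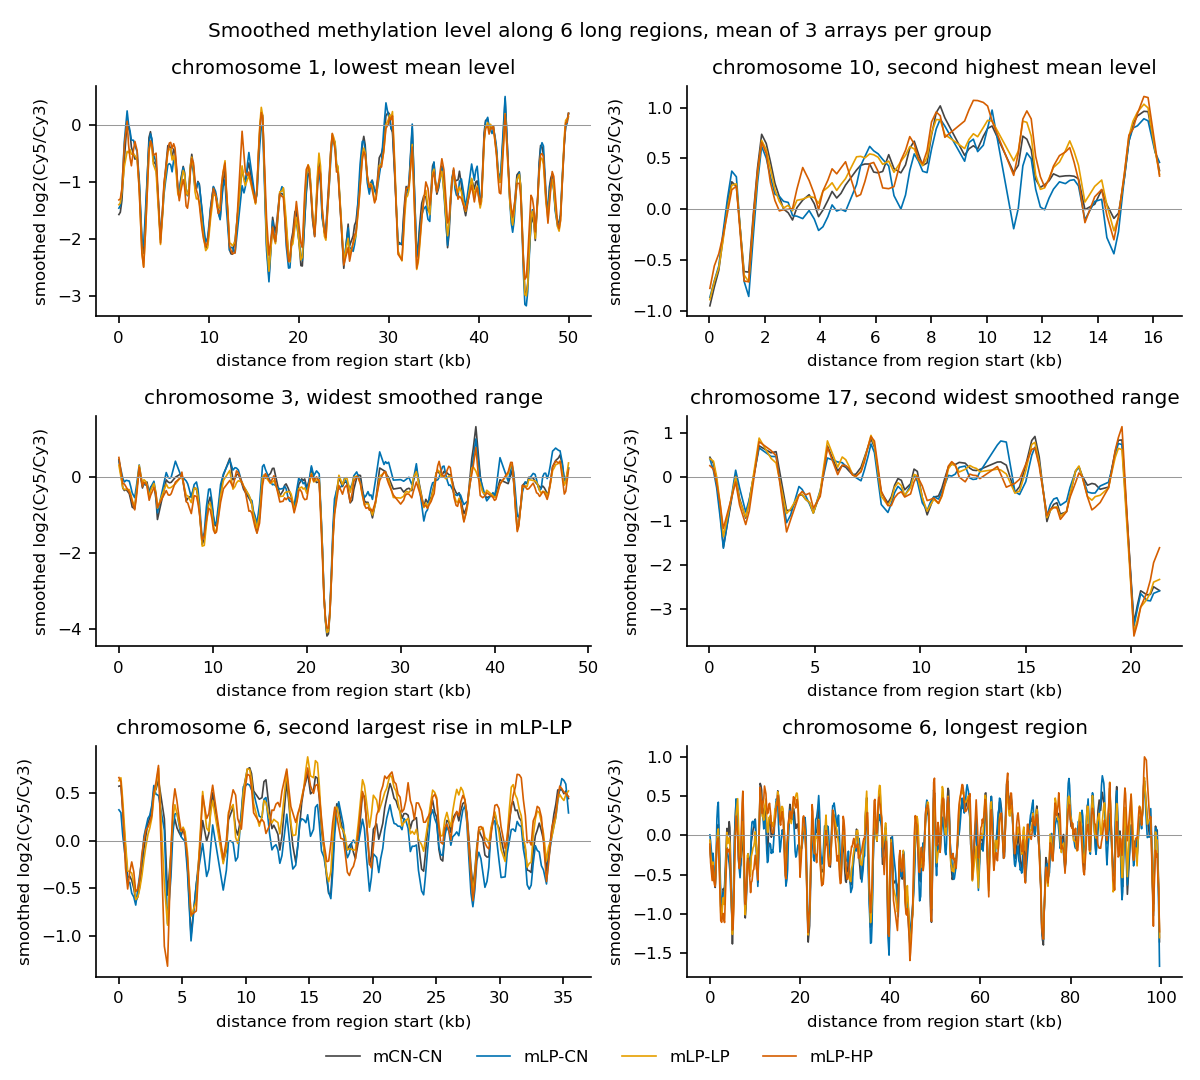
Smoothed log2(Cy5/Cy3) against the distance from the region's start, in kb, for 6 long regions; each line is the mean of 3 arrays of one group. The profiles of the 4 groups run close together, including the valley of -4.08 on chromosome 3, and the mLP-CN line lies lower over much of the 35 kb region on chromosome 6.

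The order of hills and valleys was largely shared by the groups. The correlation of the group means along a region had a median over 175 regions of 0.941 for mCN-CN with mLP-LP, 0.915 for mCN-CN with mLP-CN, 0.901 for mLP-LP with mLP-HP, 0.864 for mLP-CN with mLP-LP and 0.844 for mCN-CN with mLP-HP. It was lowest for mLP-CN with mLP-HP, at 0.766, with single regions between 0.545 and 0.920. These values carry the scans described above and are given as a description.

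Compared with the mCN-CN group, no long region passed the test in the mLP-CN group, the comparison that asks for an effect of the mother's low protein diet. In limma with Benjamini-Hochberg adjustment over 16055 regions 0 of 175 had an adjusted p below 0.05, 17 had an unadjusted p below 0.05, and 3.38% of all regions tested passed. The median difference was 0.0047 in the long regions and -0.021 over all regions. The smallest adjusted p was 0.0697, for chr1:116020987-116026025, the shortest long region. Its mean was -0.31, -0.28 and -0.13 on the mCN-CN arrays and -0.039, -0.059 and -0.020 on the mLP-CN arrays. The mLP-CN arrays were all higher, and replicate 3 of mCN-CN lay nearest to them. The count rose to 10 (8 higher, 2 lower) when replicate 3 of mCN-CN was left out, to 1 without replicate 10 of mLP-LP and to 21, all lower, with median centring alone. These were 5.71%, 0.571% and 12%, against 12.2%, 7.79% and 18.2% of all regions.

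At the scale of 1000 bp some windows passed the test, at a share near that of all windows. Of the 3979 windows in long regions 63 were hypermethylated and 50 hypomethylated in mLP-CN (2.84%, against 3.15% of all 33736 windows tested, 1.59% higher and 1.56% lower), and they lay in 81 regions. The region with the most was chr10:68568675-68590872, with 2 windows higher and 2 lower. In its window chr10:68577675-68578674 the level was -0.04, 0.05 and -0.01 on the mCN-CN arrays and -0.41, -0.44 and -0.59 on the mLP-CN arrays, a difference of -0.48 (SE 0.078, adjusted p = 0.0126, limma). Further along, in chr10:68583675-68584674, it was -0.24, -0.27 and 0.07 in mCN-CN and 0.41, 0.20 and 0.63 in mLP-CN, a difference of 0.56 (SE 0.11, adjusted p = 0.017). The arrays did not overlap in either window, and the mLP-LP and mLP-HP arrays lay with mCN-CN in both. The count of 113 windows hung on single arrays: it was 0 without replicate 1 or 2 of mCN-CN or replicate 6 of mLP-CN, 4 without replicate 4, between 49 and 66 without replicate 5, 7, 8 or 9, 278 without replicate 10 of mLP-LP and 468 without replicate 3 of mCN-CN. The 278 and 468 windows were 6.99% and 11.8%, against 7.33% and 12.3% of all windows. The count was also 0 under loess normalization and with the scanner software's processed signals. With scan as a fixed block 51 windows were higher and 305 lower, or 8.95% against 8.89% of all windows.

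Among offspring of mothers on low protein, more long regions were lower than higher in those that also ate low protein themselves. Compared with the mLP-CN group, 3 long regions were hypermethylated and 16 hypomethylated in mLP-LP (10.9%, against 19.7% of all regions tested, 11.8% higher and 7.92% lower). With a prior spread that follows the number of probes, chosen after seeing the data, the order of the shares turned: 16 were higher and 37 lower, or 30.3% against 20.8% of all regions. The SD between arrays within groups was 0.042 in long regions and 0.077 over all regions. Without dim probes, whose input signal was well above background on no array, 5 were higher and 6 lower (6.29%, against 18% of all regions). The excess of lower regions was thus small there, with a median difference of -0.011 in long regions. In the main fit the median difference was -0.030 in the long regions and 0.016 over all regions. All 19 had arrays that did not overlap, which 53.1% of the long regions and 35.8% of all regions had. The 16 that fell all had a mean level below 0 and the 3 that rose one above 0, among 123 long regions below 0 and 52 above. This level is the mean over all 12 arrays and includes the arrays compared, so these counts are a description.

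The largest rise was in chr1:95546183-95553483, whose mean was -0.067, -0.033 and -0.109 on the mLP-CN arrays and 0.230, 0.130 and 0.142 on the mLP-LP arrays, a difference of 0.24 (SE 0.052, adjusted p = 0.0059, limma). The mCN-CN arrays stood at 0.101, 0.111 and 0.047, between the groups. In chr6:136932089-136967543, a region of 35455 bp and 196 probes, the mean was -0.032, 0.004 and -0.010 in mLP-CN and 0.209, 0.163 and 0.186 in mLP-LP, a difference of 0.20 (SE 0.049, adjusted p = 0.0105). Of its 36 windows 14 rose and 0 fell, so the rise was spread over the region. The largest fall was in chr11:16362307-16367481, from -0.047, -0.141 and -0.108 in mLP-CN to -0.439, -0.346 and -0.444 in mLP-LP (-0.31, SE 0.063, adjusted p = 0.00381). In chr1:116020987-116026025 the mLP-LP arrays stood at -0.285, -0.232 and -0.422 against the mLP-CN values given above (-0.27, SE 0.060, adjusted p = 0.00593). Precipitated signal was well above background for 42.9% of readings in the chromosome 11 region and for 30% in this chromosome 1 region, against 92.3% and 88.6% in the 2 regions that rose.

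The 16 regions that fell were in 10 blocks, 7 of which held 1 of them. The 3 blocks with 2 or more, picked out after their values were seen, held 9, and whether falls gather in blocks was not tested. In the block chr11:16347594-16443656, 4 of 5 long regions fell and all 5 differences were between -0.31 and -0.14. In chr5:53434878-53504857 all 3 long regions fell (-0.22 to -0.17), and in chr1:115954592-116004652, 2 of 4 fell with all 4 differences between -0.18 and -0.15. These counts rested on the processing: 0 regions passed with loess normalization, without background correction, with the processed signals, with the authors' table or with scan as a random block, and median centring alone, which moved the median over all regions from 0.016 to 0.12, gave 44 higher and 3 lower. The count was 6 without replicate 12 of mLP-LP, 7 and 8 without replicates 4 and 6 of mLP-CN, 16 without replicate 10 of mLP-LP and 30 without replicate 3 of mCN-CN. This last count was 17.1%, against 26.2% of all regions, and that with median centring alone was 26.9% against 38.1%.

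The most differences were found in the offspring on the high protein diet. Compared with the mLP-CN group, 12 long regions were hypermethylated and 38 hypomethylated in mLP-HP (28.6%, against 38.3% of all regions tested, 21.3% higher and 17% lower). With the prior spread that follows the number of probes 28 were higher and 66 lower, or 53.7% against 38.9% of all regions, so here too the order of the shares turned. Without dim probes 14 were higher and 24 lower (21.7%, against 37.3% of all regions), with a median difference of -0.016 in long regions. In the main fit the median difference was -0.037 in the long regions and 0.012 over all regions. Differences in the long regions ran from -0.33 to 0.31, and 70.3% of them had arrays that did not overlap, against 56.4% of all regions. Of the 38 that fell 36 had a mean level below 0, and of the 12 that rose 10 had one above 0. Here too the level includes the arrays compared. Since this comparison uses the same mLP-CN arrays as the previous one, the values of a region in both are given side by side and not as separate evidence.

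The largest rises were both in the block chr1:95546183-95604690. The mLP-HP arrays stood at 0.230, 0.277 and 0.215 in chr1:95546183-95553483, against the mLP-CN values of -0.109 to -0.033 given above (0.31, SE 0.052, adjusted p = 0.000315). In chr1:95571825-95587049 they stood at 0.131, 0.112 and 0.131 against -0.131, -0.056 and -0.093 in mLP-CN (0.22, SE 0.052, adjusted p = 0.00354). There the mLP-LP arrays, at 0.021, -0.077 and 0.037, overlapped with mLP-CN (0.087, adjusted p = 0.249). The mean of chr6:136932089-136967543 was 0.171, 0.201 and 0.226 in mLP-HP (0.21, SE 0.049, adjusted p = 0.00295). The largest fall was in chr5:53471988-53478710, from -0.250, -0.346 and -0.246 in mLP-CN to -0.587, -0.632 and -0.623 in mLP-HP (-0.33, SE 0.059, adjusted p = 0.00045). The mCN-CN arrays stood at -0.466, -0.425 and -0.343 there and the mLP-LP arrays at -0.559, -0.370 and -0.510. In chr11:16362307-16367481 the mLP-HP arrays stood at -0.342, -0.466 and -0.466 (-0.33, SE 0.063, adjusted p = 0.000778). Regions were named only where the arrays compared did not overlap. The fall on chromosome 5 held under all 21 alternatives (-0.47 to -0.24, adjusted p of at most 0.0391). However, precipitated signal in that region was well above background for only 28.1% of readings. The fall on chromosome 11 held under 20 of 21 (adjusted p of at most 0.0558), the exception being scan as a random block. The rise at chr1:95546183-95553483 was lost under 3 of 21 (0.036 to 0.45, adjusted p up to 0.621) and that at chr1:95571825-95587049 also under 3 (0.055 to 0.37, adjusted p up to 0.445). The 21 alternatives include leaving out each of the 12 arrays. Arrays of mCN-CN and mLP-LP do not enter these differences, so leaving them out could change only the SE and the adjusted p. Counts of alternatives passed are thus not counts of separate checks.

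**Figure D4:**
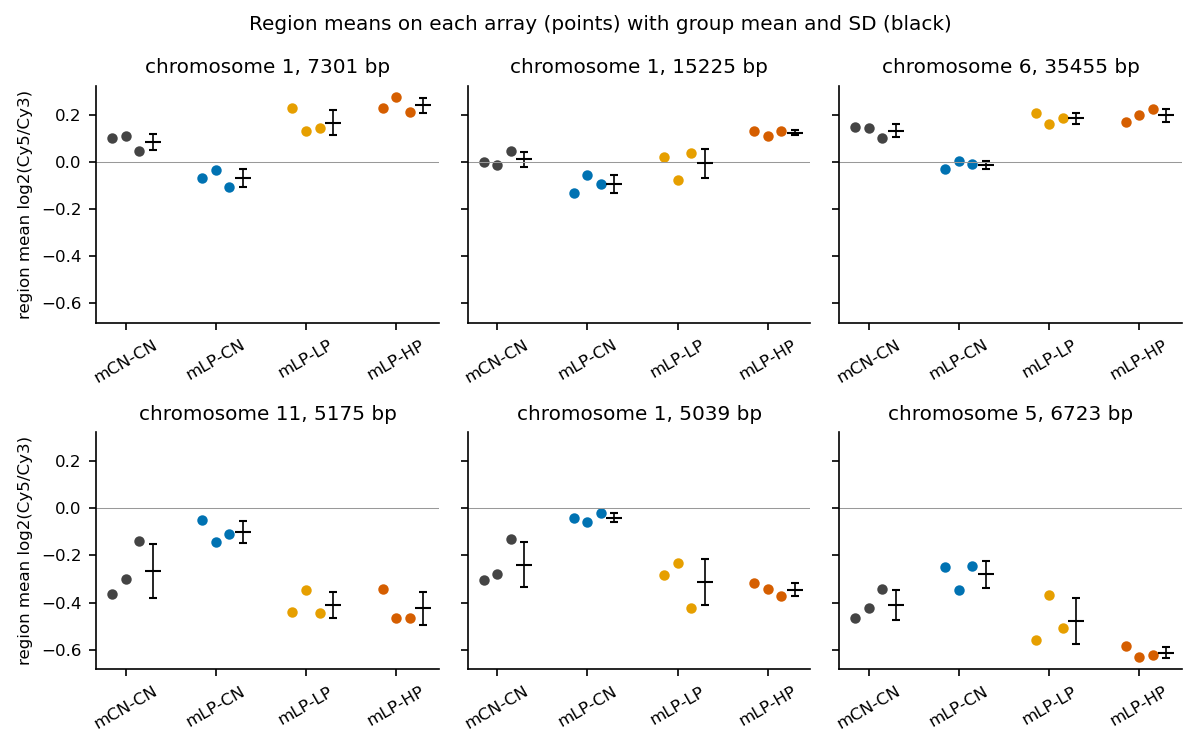
Region mean log2(Cy5/Cy3) on each array (coloured points) with the group mean and SD (black, n = 3) for 6 long regions named in the text, 3 that rose (upper row) and 3 that fell (lower row) in mLP-HP. The regions were chosen among those whose compared arrays do not overlap, and in the chromosome 11 region replicate 3 of mCN-CN (-0.140) lies with the mLP-CN arrays.

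The 38 regions that fell were in 26 blocks, 7 of which held 2 or more and together 19. In the blocks chr11:16347594-16443656 and chr5:53434878-53504857, 4 of 5 and 3 of 3 long regions fell, with differences of -0.33 to -0.13 and of -0.33 to -0.24. In chr1:115954592-116004652 and the block after it, chr1:116020987-116096510, 3 of 4 fell in each. The block next along that chromosome, chr1:116165050-116215045, had the lowest level of all and did not pass the test (-0.0050, SE 0.056, adjusted p = 0.952). Only 1 block held regions that passed in both directions. With scan as a random block 1 region rose and 3 fell, with loess 0 rose and 28 fell, and with median centring alone 49 rose and 59 fell. These were 2.29%, 16% and 61.7%, against 9.69%, 23% and 60.2% of all regions. The count was 23, 25 and 27 without replicate 9 of mLP-HP, replicate 4 of mLP-CN and replicate 8 of mLP-HP.

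A region mean hid much of what differed inside the regions. For mLP-HP against mLP-CN 632 windows of the long regions were higher and 915 lower (38.9%, against 38.1% of all windows, 19.7% higher and 18.4% lower). They lay in 173 of the 175 regions, and 123 regions held windows of both directions. For mLP-LP against mLP-CN 279 windows were higher and 380 lower (16.6%, against 17.6% of all windows, 9.53% higher and 8.04% lower), in 154 regions, 61 of them with both directions. The share of windows that differed was thus near that of all windows on the array in both comparisons. Long regions hold many windows each, and how many regions would hold both directions at these shares was not worked out. Without mLP-LP replicate 10 the latter count was 682. It was 250, 267 and 297 without replicates 4 and 6 of mLP-CN and 12 of mLP-LP, and with scan as a random block 0 windows passed for mLP-LP, while 160 were higher and 127 lower for mLP-HP.

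The longest region, chr6:134339829-134439545 (99717 bp, 538 probes, 22 valleys and 11 hills), held the most in both comparisons. For mLP-HP 39 of its 99 windows passed and for mLP-LP 22 did, against 38.1% and 17.6% of all windows. Longer regions hold more windows, so counts of this kind are not shares. Its mean did not pass the test for mLP-HP against mLP-CN (0.021, SE 0.050, adjusted p = 0.766), yet 23 of its 99 windows were higher and 16 lower. The window with the largest fall, chr6:134348829-134349828, had levels of 0.08, 0.09 and -0.12 in mLP-CN and of -0.59, -0.70 and -0.57 in mLP-HP (-0.64, SE 0.11, adjusted p = 0.000524). The window chr6:134351829-134352828 lay a little further along. It had levels of 0.00, 0.03 and -0.28 in mLP-CN and of 0.32, 0.46 and 0.44 in mLP-HP (0.49, SE 0.11, adjusted p = 0.00236). In both windows replicate 10 of mLP-LP, at -0.54 and 0.48, stood near all 3 mLP-HP arrays, and replicates 11 and 12 stood at -0.25 and -0.07 and at 0.06 and 0.03. The other very long regions also held windows of both directions, in differing proportions: chr10:65851074-65948944 had 24 windows higher and 6 lower, chr6:134098852-134155478 had 14 and 6, chr17:22069800-22136345 had 10 and 14, and chr1:135241889-135304142 had 10 and 7. By contrast, 17 of 36 windows were higher and 1 lower in chr6:136932089-136967543, and 2 of 43 were higher and 21 lower in chr3:18601182-18649087. The mean of the latter fell by 0.22 (SE 0.059, adjusted p = 0.00734), while the 2 windows over its deep valley did not pass (-0.20 and -0.14, adjusted p = 0.0532 and 0.147).

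**Figure D5:**
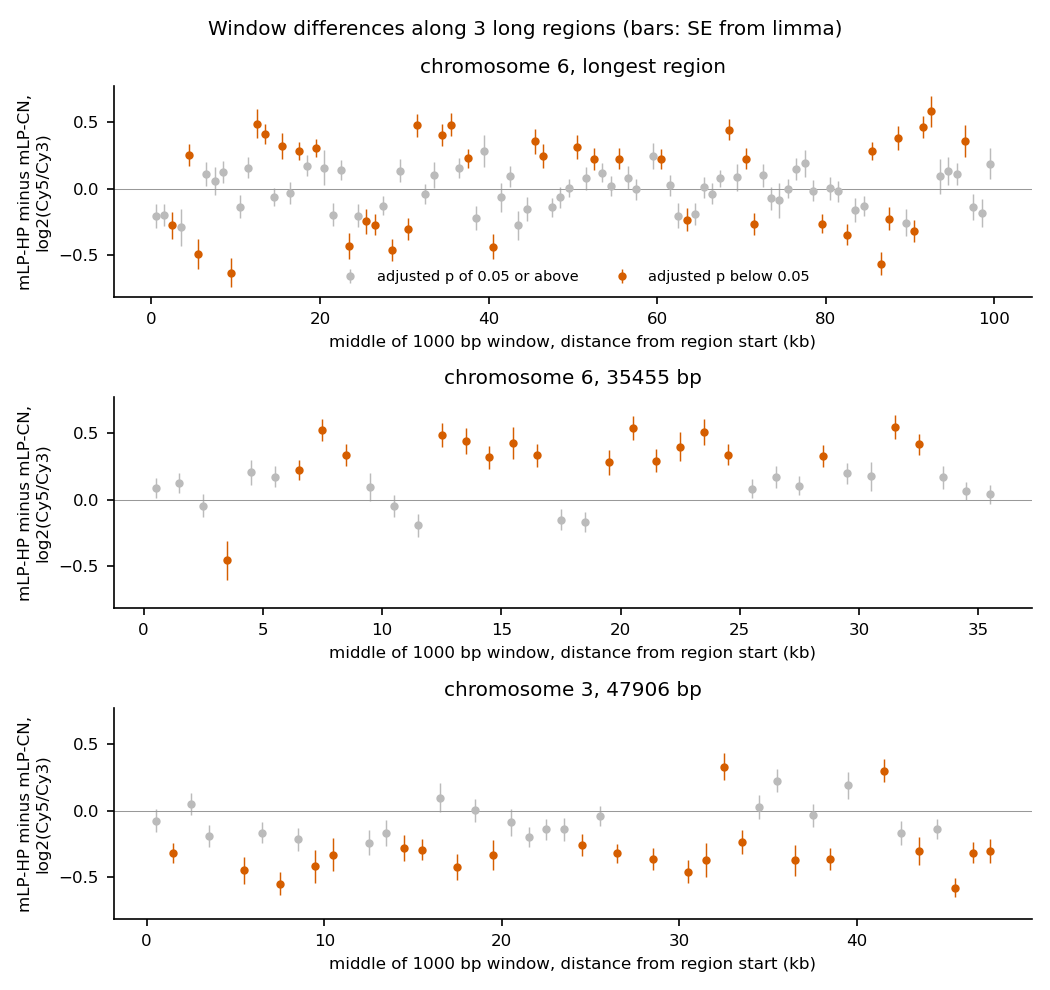
Difference mLP-HP minus mLP-CN in log2(Cy5/Cy3), with its SE, for each 1000 bp window along 3 long regions; windows with an adjusted p below 0.05 are coloured. Higher and lower windows alternate in the longest region, whereas 17 of the 18 coloured windows are higher in the 35 kb region and 21 of 23 are lower in the chromosome 3 region.

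The direction of the window differences followed the level. In the long regions' windows in the lowest 25% of window levels 143 were higher and 372 lower in mLP-HP than in mLP-CN, with a median difference of -0.10, whereas in the highest 25% 124 were higher and 76 lower, with a median of 0.023. The windows of other autosomal regions had medians of -0.062 and 0.057 in the same classes. Long regions hold 1323 windows in the lowest and 525 in the highest class. The levels that set the classes include the arrays compared, so these values describe the data and were not tested.

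A difference in slope along a region was tested as the mean of the probes right of the region's midpoint minus that of the probes left of it. For mLP-HP against mLP-CN 6 long regions changed in one direction and 6 in the other (6.86%, against 35.1% of all regions tested, 17.5% and 17.6% in the 2 directions), and for the maternal comparison and for mLP-LP 0 passed (5 and 9 at an unadjusted p below 0.05, limma), against 1.47% and 14% of all regions. The SD between arrays within groups of this measure was 0.050 in long regions and 0.15 over all regions. For mLP-HP against mLP-CN the arrays did not overlap in 54.3% of the long regions and in 55.3% of the other autosomal regions. By that count the long regions were near the others, unlike by the share that passed. In chr10:84990461-84995894 the right side minus the left side was 0.37 larger in mLP-HP than in mLP-CN (SE 0.10, adjusted p = 0.0128) and in chr9:22114476-22122757 it was 0.34 larger (adjusted p = 0.0161). It was smaller in chr6:134091363-134097591 (-0.34, adjusted p = 0.0213) and in chr1:116020987-116026025 (-0.31, adjusted p = 0.0163). None of the 12 passed with scan as a random block, and for mLP-LP 2 passed without replicate 3 of mCN-CN. For mLP-HP the count was 3, 4, 6, 6, 7 and 19 without replicate 9 of mLP-HP, 4 and 6 of mLP-CN, 8 and 7 of mLP-HP and 10 of mLP-LP.

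No long region passed the test when mLP-HP was compared with mLP-LP, groups that share the maternal diet and differ in the offspring's. In limma 0 of 175 region means passed (7 at an unadjusted p below 0.05; 0% of all regions passed), and the median difference was -0.015 (range -0.13 to 0.13, median SE 0.053). Of the windows 0 of 3979 passed (769 at an unadjusted p below 0.05, limma), also 0% of all windows. Without replicate 10 of mLP-LP 1 region was higher and 5 were lower in mLP-HP, or 3.43% against 21.5% of all regions. With loess 8 passed (4.57% against 6.27%) and with median centring alone 19 did (10.9% against 16.5%).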

How the data were processed

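Methylated DNA immunoprecipitation on 2-colour Agilent promoter arrays was analysed in 12 kidney samples, 4 groups of 3 arrays. The authors scanned the arrays and extracted spot intensities with Agilent Feature Extraction 11.0.1.1, and the deposited files give median spot and background intensities for 172669 probes with positions on rn4. A deposited table of log2 ratios holds the authors' processed values, which the submitters' processing notes tie to limma, and was used as an alternative. The authors' peak calls were not used here.

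Median signals were background corrected (normexp, offset 50), control spots were removed, spots flagged as outliers were set missing, and log2(Cy5/Cy3) was median centred and quantile normalized between arrays (R 4.3.3, limma 3.58.1). Probe levels were averaged over regions of at least 3 probes (16055), over 1000 bp windows (33736) and over each side of a region's midpoint (14896), and 1 limma model over 12 arrays was fitted to each, with Benjamini-Hochberg adjustment over all features of that kind and a threshold of 0.05. A pass means an adjusted p below 0.05 in limma unless another test is named, and a level or difference is on the log2 scale throughout. The scripts were tested on simulated data. The number of arrays, the signal over background and the overlap of scan with group limit the precision. Regions were named by rule: the 5 longest, the 3 highest and 3 lowest in level, the 5 with the widest range, the 2 with the largest rise and the 2 with the largest fall among those that passed with arrays not overlapping in each comparison of region means and side differences, and the region with the most windows that passed. Single windows and blocks were picked after their values were seen. The regions, rules and tests were chosen with earlier results of these data known. Alternatives were the processed signals, no background correction, other normalizations, the authors' table, dim probes left out, scan as a block, other region, window and hill limits, and each array left out.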

Additional observations from a re-analysis of the deposited data

How the results depend on the processing

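The lower level of the long regions kept its direction on all alternatives (-0.35 to -0.13; -0.17 to -0.16 with 1 array left out). With the processed signals 0 and 8 regions passed for mLP-LP and mLP-HP against mLP-CN, and 0, 8 and 840 windows for mLP-CN against mCN-CN, mLP-LP and mLP-HP. Without background correction these were 0 and 14 regions and 70, 10 and 939 windows, and 2 side differences for mLP-HP. Median centring alone gave 21, 47, 108 and 19 regions (the last for mLP-HP against mLP-LP), 198 windows for mLP-CN and 30 side differences. The regions were 12%, 26.9%, 61.7% and 10.9%, against 18.2%, 38.1%, 60.2% and 16.5% of all regions. Loess gave 0, 28 and 8 regions for the last 3 comparisons, 0, 0 and 873 windows and 2 side differences. The 28 and 8 regions were 16% and 4.57%, against 23% and 6.27% of all regions. The authors' table gave 1, 0 and 21 regions, 24 windows for mLP-LP and 6 side differences. Without dim probes 11 regions passed for mLP-LP (5 higher and 6 lower), 44 windows for mLP-CN and 1 side difference for mLP-LP. Scan as a random block left 0 and 4 regions, 178, 0 and 287 windows and 0 side differences, and scan as a fixed block, possible for mLP-CN against mCN-CN, gave 2 regions and 356 windows. The latter were 1.14% and 8.95%, against 11.6% of all regions and 8.89% of all windows. For mLP-HP the processed signals, no background correction, the authors' table and scan as a random block gave 4.57%, 8%, 12% and 2.29% of long regions. Over all regions these shares were 19.9%, 24.1%, 27.4% and 9.69%. Regions broken at 500 bp gave 79 of 259 for mLP-HP (30.5%, against 38.1% of all regions). Medians over probes gave 1 region for mLP-CN and 33 for mLP-HP, or 0.571% and 18.9%, against 5.13% and 32.3% of all regions. A prior spread that follows the number of probes, chosen after seeing the data, gave 6, 53 and 94 regions, which moved the long regions' share from below to above that of all regions for mLP-LP and mLP-HP. Comparing the outer parts of a region gave 2 and 21 side differences. Hills and valleys in the same region fell from 108 regions to 39 with the highest and lowest 10% and to 53 with at least 5 probes. With 1 array left out, the counts were 0 to 10, 6 to 30, 23 to 66 and 0 to 6 regions, 0 to 468, 250 to 956 and 1063 to 1773 windows, 0 to 2 and 3 to 19 side differences for mLP-LP and mLP-HP, and 105 to 111 regions with both hills and valleys. Leaving out arrays for the level and for the hills and valleys was also chosen after seeing the data. The cause of these shifts was not tested. No paired analysis was possible because no replicate number occurs in more than 1 group. Low precipitated signal, above background in 48.9% of readings in the lowest probe class, limits what can be said of valleys.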
